A study of Rattus norvegicus with 20 samples.

Results

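The kidneys of rats given the combined injury labelled RM-HS were compared with kidneys of sham-operated rats, gene by gene. The libraries were chosen by their disease label, which gave 3 RM-HS and 6 Sham libraries, 9 of the 20 kidney RNA libraries of a study of acute kidney injury after trauma, modelled in rats. The other libraries carry the labels RM (6 libraries) and HS (5 libraries), the 2 single injuries. RM and HS are read here as rhabdomyolysis, the breakdown of muscle fibres, and haemorrhagic shock, the loss of blood volume, although the labels do not spell them out. A row of the table was tested where its normalized read count was at least 10 in at least 3 of the 20 libraries, which kept 15954 of 34681 rows, 12967 of them with a gene symbol. The labels used here give every library the tissue kidney and 1 disease word, with no strain, sex, age, dose or time after injury. They do not say whether the libraries are separate animals, so the p-values measure the spread between libraries only. The libraries are named Sham 1 to Sham 6 and RM-HS 1 to RM-HS 3 in accession order. All 9 have deposited names that begin with the letter R.

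Broken muscle releases myoglobin, a haem protein that is filtered by the glomerulus and taken up by proximal tubule cells. There haem oxygenase splits the haem and ferritin stores the freed iron. Blood loss lowers the flow of blood and oxygen through the kidney, and the outer medulla, which holds the thick ascending limb, has little oxygen to spare. Injured tubule cells are known to lose the transporters of their segment, to switch on stress genes such as Havcr1 and Lcn2, and to send signals that draw neutrophils out of the blood.

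Between 45047179 and 103005918 reads were counted per library, 66376448 to 84042343 of them in the RM-HS group, and 42.4% to 51.8% of the reads of a library came from the 14 mitochondrial rows. The 6 Sham libraries were not alike. Slc5a2, the glucose transporter SGLT2 of the early proximal tubule (rn6 chromosome 1, 199682688 to 199688809), had 6791, 48.2, 396, 180.0, 43.1 and 7863 normalized reads in Sham 1 to Sham 6 and 15915, 14297 and 19919 in RM-HS 1 to RM-HS 3. Sham 2 to Sham 5 thus held little of a defining cortical gene that was high in Sham 1, Sham 6 and every RM-HS library. In bulk tissue, fewer cells of a type, another share of cortex in the piece and less RNA per cell cannot be told apart. Each comparison was therefore made with 2 sets of controls, all 6 Sham libraries and Sham 1 with Sham 6 alone.

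The combined injury went with a difference in a large part of the measured transcriptome. With all 6 Sham libraries, 6749 rows passed a limma adjusted p of 0.05, which is 42.3% of the rows tested, 3395 higher (21.3%) and 3354 lower (21%) in RM-HS. Of these, 2912 rows (18.3% of those tested) differed by 2-fold or more. In all, 7960 rows (49.9%) had an unadjusted p below 0.05. With Sham 1 and Sham 6 as the only controls 4347 rows passed (27.2%), 2392 higher (15%) and 1955 lower (12.3%). That count was 2319 without Sham 1, which leaves Sham 6 as the lone control, and 2746 without Sham 6. With both sets of controls 3892 rows passed in the same direction (24.4%), 2121 higher (13.3%) and 1771 lower (11.1%), and 1751 rows (11%) were 2-fold apart in each. None of the 6749 passed in the opposite direction with the smaller set, although 23 had the opposite sign. Both fits hold the same RM-HS libraries and Sham 1 and Sham 6, so this agreement in direction is partly built in. The 3 RM-HS libraries lay wholly above or wholly below the 6 Sham libraries in 5191 rows (32.5%). The median log2 fold change of all rows was -0.03, and scaling to the upper quartile moved it to -0.16. The split then changed from 50.3% to 37% of calls higher, and with Sham 1 and Sham 6 alone it was 55%. Gene groups below are given as counts of tested members beside those shares, a count near them being no result about a group, and "in both comparisons" means passing with each set of controls. A gene may belong to more than 1 list. Where values are joined by "against", the first are the normalized reads of RM-HS 1 to 3 and the second those of Sham, and a value with ± is a log2 fold change with its standard error, from all 6 Sham libraries unless said otherwise.

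**Figure D1:**
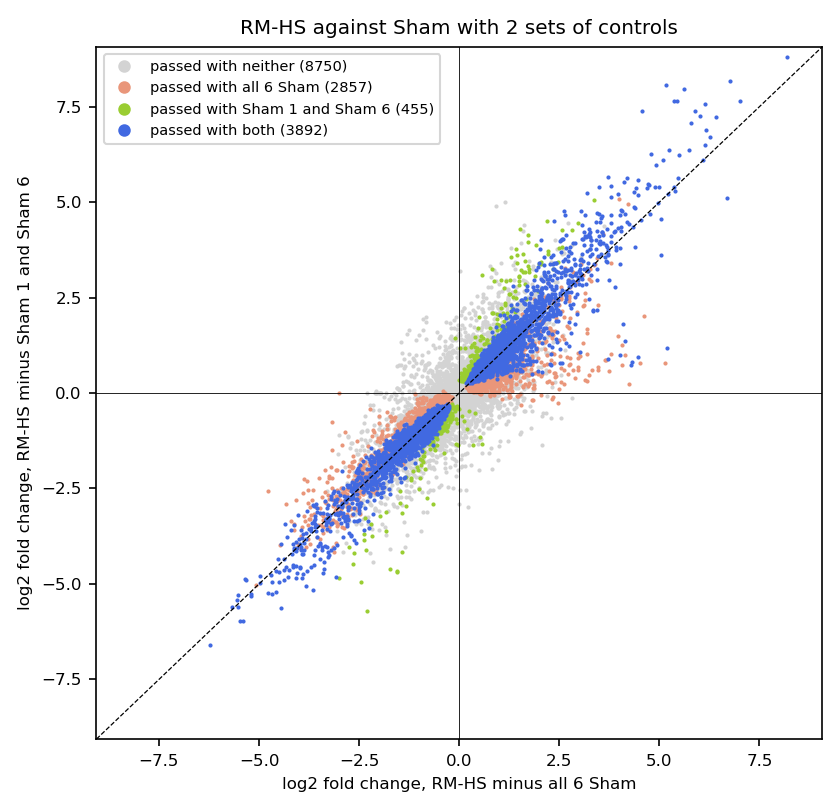
Each point is 1 of the 15954 rows tested, with its log2 fold change of RM-HS against all 6 Sham libraries on the x axis and against Sham 1 and Sham 6 alone on the y axis. The 3892 rows that passed with both sets (blue) lie near the diagonal, while many of the 2857 that passed with all 6 Sham libraries alone (salmon) lie to the right of it, near 0 on the y axis.

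**Figure D2:**
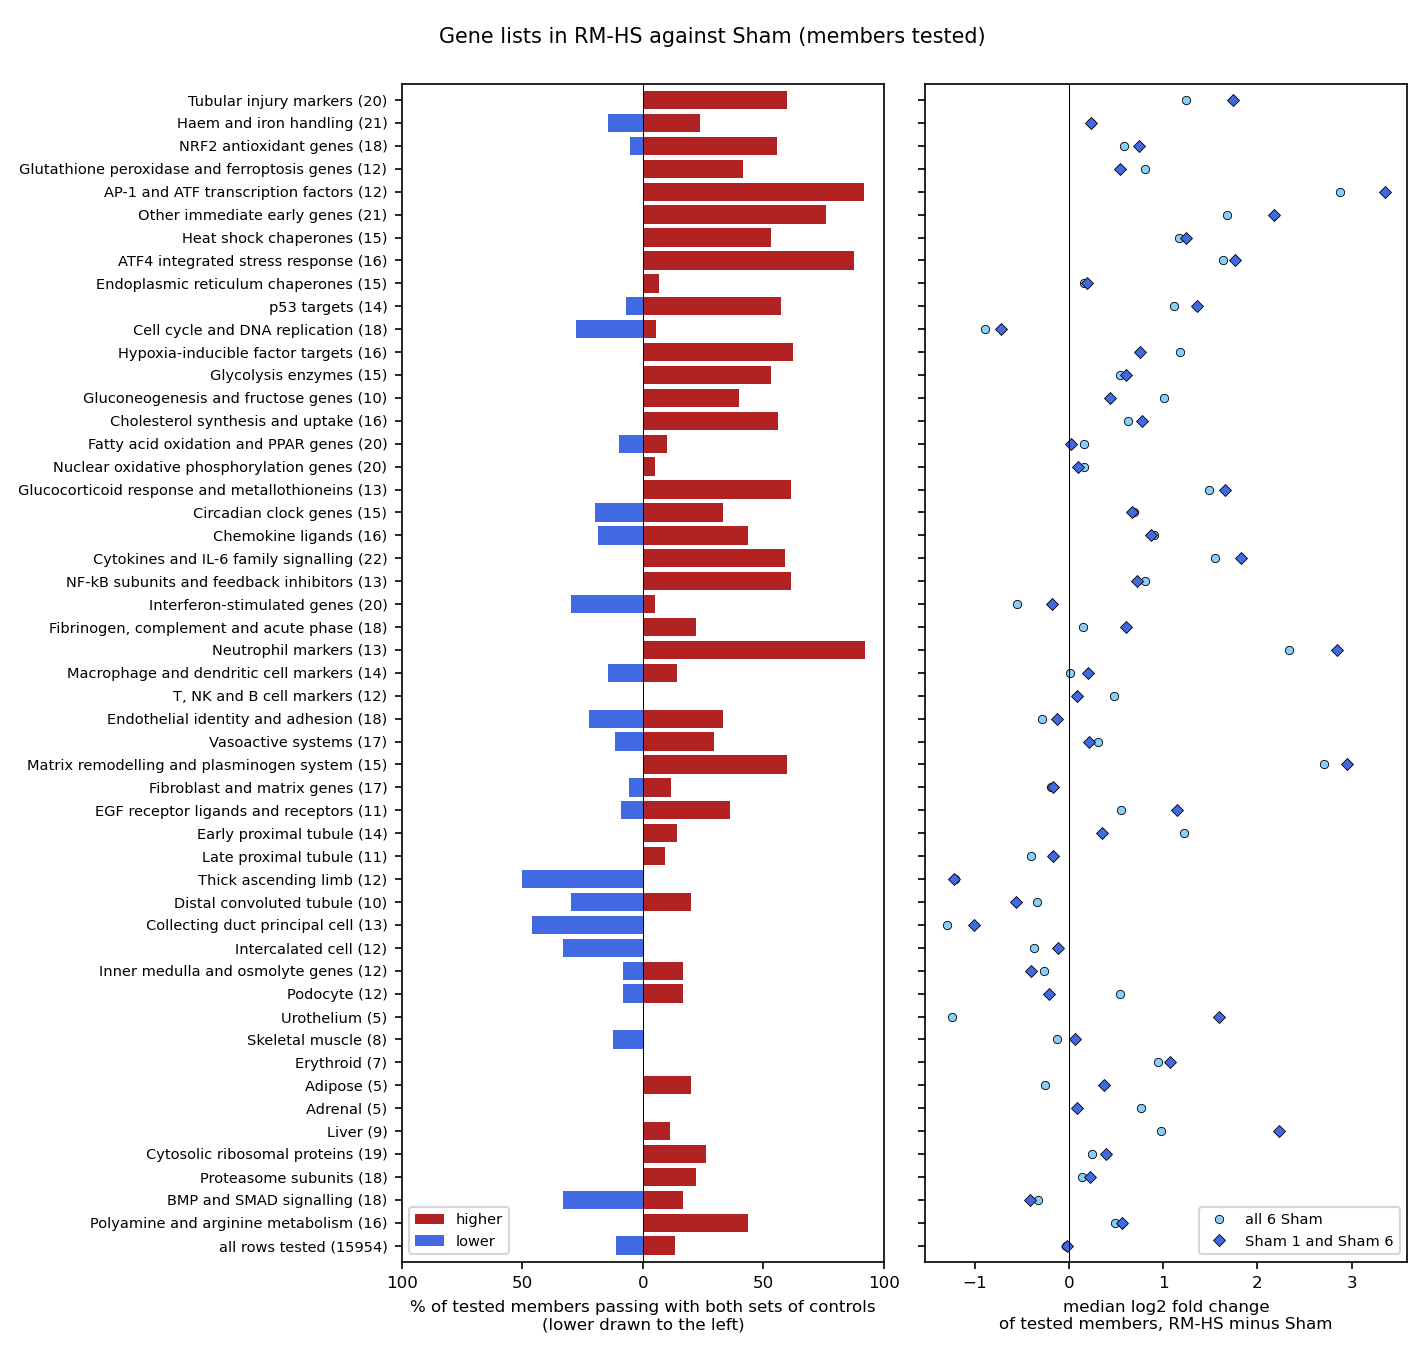
The left panel gives, for each gene list with its number of tested members in brackets, the percent of members higher (red) or lower (blue, drawn to the left) in RM-HS in both comparisons; the right panel gives the median log2 fold change of the members with all 6 Sham libraries (circles) and with Sham 1 and Sham 6 (diamonds). AP-1 factors, neutrophil markers and ATF4 targets have the highest shares of risen members, thick ascending limb and principal cell genes the highest shares of fallen ones, and the bottom row gives the same shares over all rows tested.

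Most textbook markers of tubular injury rose in RM-HS kidneys. Of 20 markers tested, 12 rose in both comparisons, where 13.3% of all rows did, and none fell in both, with a median log2 fold change of 1.24. Havcr1 encodes KIM-1, a phagocytic receptor that injured proximal tubule cells put on their surface (rn6 chromosome 10, 31814245 to 31846857). Its levels were 10917, 7741 and 5765 normalized reads in RM-HS 1 to 3 and 39.4 to 249 (median 152) in Sham. The lowest RM-HS library was far above the highest Sham library, at 6.03 ± 0.71 on the log2 scale (limma adjusted p = 2.81e-06). Against Sham 1 and Sham 6 the fold change was 7.25 ± 0.85 (limma adjusted p = 2.89e-05). Gdf15, a stress cytokine of the TGF-beta family, had 14602, 16862 and 7025 against 271 to 1309 (median 628), again with no overlap, and 4.36 ± 0.34 on the log2 scale (limma adjusted p = 2.51e-08). Lcn2, the iron-siderophore binding protein NGAL, had 27623, 24949 and 8768 in RM-HS and 19.8 to 4392 (median 1298) in Sham. All 3 RM-HS libraries were above all Sham libraries, whose range was wide, and the call rested on RM-HS 1: the value of 5.18 ± 1.60 on the log2 scale (limma adjusted p = 0.0136) became 4.88 (limma adjusted p = 0.0569) without that library.

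The repair-associated factor Sox9 rose by 1.45 ± 0.26 on the log2 scale (limma adjusted p = 2.25e-04), with 7522, 4762 and 4278 reads against 1164 to 3001 in Sham. Itgb6, an integrin subunit that activates latent TGF-beta, rose by 1.24 ± 0.12 and Anxa1, a phospholipid-binding protein that dampens inflammation, by 1.89 ± 0.19 (limma adjusted p = 3.92e-07 and 5.92e-07). Krt20, a keratin of stressed epithelium, had 123, 69.8 and 25.7 against 0 to 19.8 (median 6.69), all 3 RM-HS libraries above all 6 Sham libraries (log2 fold change 3.57 ± 0.78, limma adjusted p = 0.00118). The chaperone clusterin, Clu, rose by 1.07 ± 0.32 (limma adjusted p = 0.0111), and this call was lost without RM-HS 2 (0.72, limma adjusted p = 0.106). Osteopontin, Spp1, did not pass with all 6 Sham libraries (1.16 ± 0.47, limma adjusted p = 0.0536) and passed with Sham 1 and Sham 6 (1.74 ± 0.62, limma adjusted p = 0.0463). It lay near the threshold, since with all 6 Sham libraries it passed in edgeR and DESeq2 (adjusted p = 0.0305 and 0.0414) and in limma with only the groups compared in the fit (adjusted p = 0.0475). Vcam1, an adhesion molecule that marks tubule cells failing to repair, had 1501, 886 and 1629 against 835 to 3764 (median 2027) and did not pass (-0.54 ± 0.44, limma adjusted p = 0.341).

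The enzyme of haem breakdown was far higher in RM-HS. Hmox1, the inducible haem oxygenase (rn6 chromosome 19, 14508634 to 14515453), had 105490.3, 132574 and 38141 normalized reads in RM-HS 1 to 3 and 427, 433, 463, 400.1, 499.7 and 12908 in Sham 1 to 6. Sham 6 stood apart from the other 5 Sham libraries, and every RM-HS library was above it. The log2 fold change was 6.70 ± 0.88 with all Sham libraries (limma adjusted p = 8.90e-06) and 5.11 ± 1.10 with Sham 1 and Sham 6 (limma adjusted p = 0.00306). The ferritin heavy chain, Fth1, which oxidizes and stores iron, rose by 0.90 ± 0.24 (limma adjusted p = 0.00532) and did not pass when rows of low value were kept in the fit (limma adjusted p = 0.0982). Haptoglobin, Hp, the plasma protein that binds free haemoglobin, rose by 3.11 ± 0.57 from 44.1 to 376 (median 136) in Sham to 1272, 795 and 1723, with no overlap (limma adjusted p = 2.46e-04). Slc11a2, the proton-coupled iron transporter DMT1, rose by 0.68 ± 0.14 (limma adjusted p = 6.66e-04). Alas1, the first and rate-limiting enzyme of haem synthesis, fell by 0.69 on the log2 scale (limma adjusted p = 0.0011), from 3688 to 4006 (median 3876) to 2385, 2216 and 2579.6. The transferrin receptor Tfrc, which brings iron into cells, had 1696, 1017 and 1512 against 699.9 to 2118 (median 1503) and did not pass (-0.00 ± 0.23, limma adjusted p = 0.991), and its sign changed with the scaling. Of the 21 haem and iron genes tested, 5 rose and 3 fell in both comparisons. Globin transcripts were uneven between libraries: the erythroid list summed to 389240, 1090600 and 1118830 normalized reads in RM-HS and 234162 to 1368520 in Sham, and none of its 7 tested members passed as higher with either set of controls, but 5 did with Sham 2, the highest Sham library, left out of the 6. Skeletal muscle markers, a check for carried-over muscle, summed to 221 to 288 normalized reads in RM-HS and 209 to 563 in Sham, and none of the 8 tested rose with all 6 Sham libraries. With Sham 1 and Sham 6, 1 of the 8 rose, the skeletal actin Acta1, named after its values were seen (2.95 ± 0.85, limma adjusted p = 0.0171).

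Antioxidant genes driven by the factor NRF2 moved unevenly. Of 18 tested, 10 rose and 1 fell in both comparisons (median log2 fold change 0.58). Slc7a11, which imports the cystine used to make glutathione, had 2006, 2131 and 899 reads in RM-HS and 3.8 to 37.7 (median 17.1) in Sham, which is 6.76 ± 0.75 on the log2 scale (limma adjusted p = 1.45e-06), 8.17 ± 0.89 with Sham 1 and Sham 6. Every RM-HS library was more than 10 times above the highest Sham library. Sulfiredoxin, Srxn1, which repairs oxidized peroxiredoxins, had 19066, 16528 and 5719 against 242 to 719 with a median of 519.6 (4.75 ± 0.34, limma adjusted p = 7.62e-09). Thioredoxin reductase, Txnrd1, had 48711, 45973 and 28494 against 7055 to 8796 with a median of 7209 (2.42 ± 0.22, limma adjusted p = 1.81e-07), and Sqstm1, the autophagy receptor p62, rose by 1.70 ± 0.24 (limma adjusted p = 1.49e-05). None of these 4 overlapped with Sham. The member that fell in both was Gclc, the catalytic subunit of the enzyme that makes the glutathione precursor, named after its values were seen, with 119446, 86293 and 102418 against 146435 to 238924 with a median of 187625 (-0.89 ± 0.17, limma adjusted p = 2.74e-04). Among 12 genes of ferroptosis, the iron-dependent death by lipid peroxides, 5 rose and none fell in both comparisons. They included Acsl4, which loads oxidizable fatty acids into membranes (1.48 ± 0.15, limma adjusted p = 4.37e-07), Sat1, the polyamine acetyltransferase (2.06 ± 0.23, limma adjusted p = 1.53e-06), and Slc3a2, the partner chain of Slc7a11 (1.76 ± 0.26, limma adjusted p = 3.40e-05).

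The sequence just before the start of the antioxidant genes was searched for a known element. NRF2 binds the antioxidant response element, whose core is TGACNNNGC. Windows of 250 bases before the start of each gene, taken from RefSeq on build GRCr8, were searched on both strands. Elements outside these windows were not searched, so the windows do not show how many of the genes have one. The core lay in 4 of the 16 NRF2 genes that have a window, which is 25%, in 2 of the 8 that rose in both comparisons, and in 10.1% of all 33469 rat windows. Whether these small counts differ from that share was not tested. The 2 windows, of the peroxiredoxin Prdx1 (chr5:135383656-135383905, plus strand) and the glutathione peroxidase Gpx2 (chr6:101230034-101230283, minus strand), are shown 5′ to 3′ with the match in capitals, which on the other strand reads as the reverse complement of the core. The match of Prdx1 begins 135 bases before the start and overlaps a match to the AP-1 site TGANTCA. That of Gpx2 begins 13 bases before the start.
Prdx1: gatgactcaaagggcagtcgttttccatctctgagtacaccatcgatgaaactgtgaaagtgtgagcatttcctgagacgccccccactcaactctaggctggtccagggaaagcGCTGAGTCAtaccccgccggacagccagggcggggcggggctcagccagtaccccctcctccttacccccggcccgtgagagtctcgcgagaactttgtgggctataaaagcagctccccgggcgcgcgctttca
Gpx2: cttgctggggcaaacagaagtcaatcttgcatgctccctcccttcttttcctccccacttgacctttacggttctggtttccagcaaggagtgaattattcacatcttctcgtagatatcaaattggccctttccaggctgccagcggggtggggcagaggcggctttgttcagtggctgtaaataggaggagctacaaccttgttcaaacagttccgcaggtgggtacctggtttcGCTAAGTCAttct
Prdx1 had 18055, 16660.5 and 13909 normalized reads in RM-HS and 8029.9 to 13187 (median 10699) in Sham (0.59 ± 0.14, limma adjusted p = 0.00191). Gpx2 had 7511, 19543 and 10495 against 419 to 6915 with a median of 2069.7 (2.80 ± 0.63, limma adjusted p = 0.0015). Both genes were chosen for the match, and a match is a description of the sequence.

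The genes that cells switch on within minutes of a stimulus were mostly high. Of 12 AP-1 and ATF transcription factors, 11 rose in both comparisons and none fell, with a median log2 fold change of 2.88. Of 21 other immediate early genes, 16 rose in both and none fell in both, with a median of 1.68. Fosl1, the FRA-1 partner of Jun (rn6 chromosome 1, 220826529 to 220835066), had 1593, 2034 and 769.6 reads in RM-HS and 3.04 to 42.1 (median 9.43) in Sham, which is 7.0 ± 0.58 on the log2 scale (limma adjusted p = 4.40e-08). Atf3, a stress-induced repressor of the same superfamily (rn6 chromosome 13, 109817895 to 109849639), had 17902, 16859 and 11091 against 115 to 363 with a median of 186 (6.28 ± 0.38, limma adjusted p = 9.66e-10). Fosb had 2343, 1542 and 1237 against 7.06 to 54.2 with a median of 18.1 (6.42 ± 0.71, limma adjusted p = 1.34e-06). In all 3 genes the lowest RM-HS library was above the highest Sham library. Jun rose by 3.05 ± 0.21 and the small Maf protein Maff by 3.27 ± 0.27 (limma adjusted p = 4.67e-09 and 3.74e-08). Fos itself rose by 2.71 ± 0.49 (limma adjusted p = 2.34e-04), from 374 to 2051 (median 689) to 4649, 4851 and 4160.2.

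Among the other immediate early genes, Klf6, a zinc finger factor of injured epithelium, had 36031, 30548 and 20179 against 1168 to 1883 with a median of 1506 (4.24 ± 0.28, limma adjusted p = 2.81e-09). The growth regulator Myc had 7197, 7278 and 2876 against 274 to 557 with a median of 359.5 (3.89 ± 0.25, limma adjusted p = 2.81e-09), and Csrnp1, a nuclear factor induced by growth and death signals, rose by 3.03 ± 0.25 (limma adjusted p = 3.71e-08). All 3 were apart from Sham in every library. Zfp36, which makes AU-rich cytokine messages decay, rose by 2.88 ± 0.20, and the MAP kinase phosphatase Dusp1 by 2.55 ± 0.33 (limma adjusted p = 5.24e-09 and 7.14e-06). Egr1 rose by 2.21 ± 0.46 (limma adjusted p = 7.02e-04). The AP-1 site TGANTCA was in none of the 9 AP-1 and ATF genes and none of the 13 other immediate early genes with a promoter window, and in 6.34% of all windows.

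**Figure D3:**
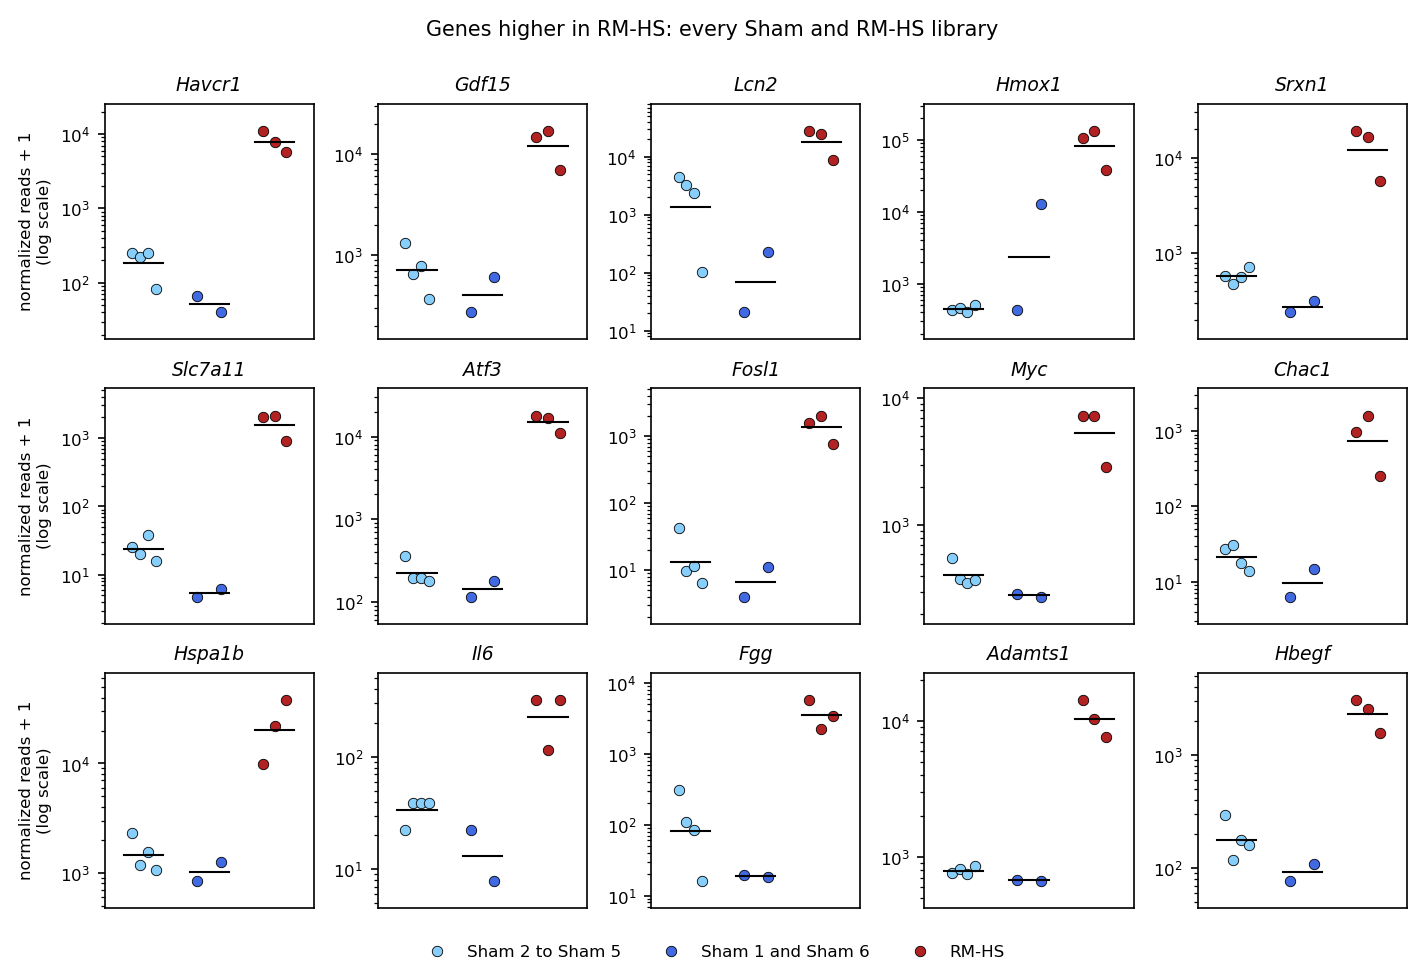
Each panel is 1 gene, with a point for each library on a log scale of normalized reads plus 1: Sham 2 to Sham 5 (light blue), Sham 1 and Sham 6 (darker blue) and RM-HS (red), with bars at the mean of the log values. In every panel but that of Lcn2, where the highest Sham library comes near the RM-HS points, the red points stand clear of both sets of blue points; Hmox1 shows Sham 6 above the other Sham libraries.

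The integrated stress response, in which cells short of amino acids or haem, or burdened with unfolded protein, slow translation and make the factor ATF4, was high in most of its targets. Of 16 targets tested, 14 rose in both comparisons and none fell, with a median log2 fold change of 1.63. Chac1, an enzyme that degrades glutathione, had 959, 1605 and 249 reads in RM-HS and 5.32 to 29.6 (median 15.1) in Sham (5.48 ± 0.69, limma adjusted p = 5.07e-06). The pseudokinase Trib3 had 474, 836 and 169.6 against 9.12 to 49.6 with a median of 25.2 (4.04 ± 0.46, limma adjusted p = 1.97e-06), and Ppp1r15a, the GADD34 subunit that restarts translation, had 5438, 6004 and 4127 against 360.2 to 829 with a median of 549 (3.26 ± 0.26, limma adjusted p = 3.40e-08). In each gene the 2 groups were apart. Atf4 itself rose by 2.15 ± 0.18 and the alanyl-tRNA synthetase Aars1 by 0.85 ± 0.09 (limma adjusted p = 3.74e-08 and 1.40e-06). Chaperones of the endoplasmic reticulum, which are targets of the unfolded protein response, were mostly not past the threshold. Of 15 tested, 1 rose in both comparisons and none fell. It was Dnajb9, a co-chaperone of BiP, with 6450.2, 8157 and 6091 against 1265 to 2447 with a median of 1467 (2.10 ± 0.23, limma adjusted p = 1.09e-06). BiP, Hspa5, had 36990.5, 43563 and 47620.2 against 16164 to 38751 (median 20910.0) and did not pass (0.84 ± 0.38, limma adjusted p = 0.0809), although it did with only the groups compared in the fit (limma adjusted p = 0.0455) and without Sham 3 or without Sham 5.

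Heat shock chaperones, which refold damaged protein under the factor HSF1, rose in 8 of 15 cases in both comparisons, and none fell. The list also holds Hmox1. Hspa1b, an inducible HSP70, had 9977, 22134 and 38019 reads against 842 to 2298 with a median of 1208 (3.98 ± 0.90, limma adjusted p = 0.00153). It is nearly identical in sequence to Hspa1a, so the split of reads between that pair is uncertain. With edgeR and Sham 1 and Sham 6 alone its adjusted p was 0.0514. Hsp90aa1, the inducible HSP90, rose by 1.84 ± 0.35, the HSP40 Dnaja1 by 1.43 ± 0.30, and the constitutive HSP70 Hspa8 by 1.07 ± 0.20 (limma adjusted p = 3.25e-04, 9.11e-04 and 2.83e-04). None of the 3 overlapped with Sham.

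Promoter windows were searched for the elements these stress pathways use. The C/EBP-ATF response element bound by ATF4, searched as TGATGNAA, was found in 4 of the 16 ATF4 targets with a window (25%), in 3 of the 14 that rose in both comparisons (21.4%) and in 3.4% of all windows. These 3 are Trib3 (chr3:161275534-161275783, minus strand), Chac1 (chr3:126795881-126796130, plus strand) and Aars1 (chr19:55908232-55908481, plus strand), with matches that begin 21, 167 and 112 bases before the start. The heat shock element, searched as the dyad GAANNTTC, was found in 8 of the 11 heat shock genes with a window (72.7%), in 3 of the 5 that rose in both (60%) and in 7.23% of all windows. These are Hspa8 (chr8:50080264-50080513, plus strand), with matches 213 and 50 bases before the start, Dnaja1 (chr5:60638154-60638403, plus strand), with 1 at 181 bases, and the HSP70 cofactor Bag3 (chr1:192533210-192533459, plus strand), with 1 at 132 bases. The 6 windows are shown with every match in capitals, again as its reverse complement where it lies on the other strand.
Trib3: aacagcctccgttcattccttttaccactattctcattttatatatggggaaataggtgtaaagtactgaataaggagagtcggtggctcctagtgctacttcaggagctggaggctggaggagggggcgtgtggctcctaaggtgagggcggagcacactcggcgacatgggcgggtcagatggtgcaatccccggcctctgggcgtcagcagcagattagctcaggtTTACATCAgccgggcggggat
Chac1: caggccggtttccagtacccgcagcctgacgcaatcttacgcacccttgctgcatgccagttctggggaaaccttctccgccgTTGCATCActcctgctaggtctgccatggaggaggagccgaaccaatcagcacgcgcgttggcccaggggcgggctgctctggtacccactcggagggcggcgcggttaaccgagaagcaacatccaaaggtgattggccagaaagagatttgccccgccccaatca
Aars1: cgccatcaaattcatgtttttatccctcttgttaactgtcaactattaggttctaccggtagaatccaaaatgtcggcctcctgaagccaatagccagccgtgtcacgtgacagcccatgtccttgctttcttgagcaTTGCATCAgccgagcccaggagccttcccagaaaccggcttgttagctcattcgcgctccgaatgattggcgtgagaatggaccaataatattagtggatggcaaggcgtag
Hspa8: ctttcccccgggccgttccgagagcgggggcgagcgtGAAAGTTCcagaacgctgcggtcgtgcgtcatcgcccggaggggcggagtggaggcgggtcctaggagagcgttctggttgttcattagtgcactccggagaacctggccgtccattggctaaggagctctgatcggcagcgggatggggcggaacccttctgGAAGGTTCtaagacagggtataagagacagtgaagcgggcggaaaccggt
Dnaja1: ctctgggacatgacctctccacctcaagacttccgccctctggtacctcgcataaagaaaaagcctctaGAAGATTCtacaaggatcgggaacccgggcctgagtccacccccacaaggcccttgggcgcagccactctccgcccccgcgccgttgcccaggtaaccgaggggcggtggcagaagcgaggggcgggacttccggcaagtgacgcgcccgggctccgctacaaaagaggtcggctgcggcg
Bag3: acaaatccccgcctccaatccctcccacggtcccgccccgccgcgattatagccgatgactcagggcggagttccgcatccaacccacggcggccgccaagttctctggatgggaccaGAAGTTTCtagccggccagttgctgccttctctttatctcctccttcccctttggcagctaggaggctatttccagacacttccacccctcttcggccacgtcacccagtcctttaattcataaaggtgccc
Bag3 had 2845, 3125 and 2923 reads in RM-HS and 1104 to 1383 (median 1136) in Sham (1.30 ± 0.30, limma adjusted p = 0.00188). The matches describe these windows alone, and the factors' binding was not measured.

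Many p53 targets rose, and some DNA replication genes fell. Of 14 p53 targets, 8 rose and 1 fell in both comparisons. Cdkn1a, the cell cycle brake p21, had 4245, 5349 and 2833 against 213 to 766 with a median of 508 (3.24 ± 0.33, limma adjusted p = 6.74e-07). The kinase Plk3 had 5775, 5173 and 3241 against 275 to 479.9 with a median of 326 (3.73 ± 0.19, limma adjusted p = 2.81e-10), Gadd45a rose by 2.40 ± 0.17 and the antiproliferative Btg2 by 3.25 ± 0.35 (limma adjusted p = 5.24e-09 and 1.01e-06). All 4 were clear of every Sham library. Of 18 cell cycle genes, 5 fell and 1 rose in both comparisons, with a median log2 fold change of -0.89. With all 6 Sham libraries 8 fell, and 4 did so without RM-HS 1. Mcm6, a subunit of the replication helicase, had 147, 215 and 118.3 against 380.5 to 631 with a median of 504 (-1.64 ± 0.23, limma adjusted p = 1.66e-05), below Sham in every library. Its partner Mcm2 fell by 0.99, cyclin E1, Ccne1, by 1.59, and the S phase factor E2f1 by 1.35 on the log2 scale (limma adjusted p = 1.39e-06, 4.06e-04 and 7.59e-04). The member that rose, named after its values were seen, was the replication clamp Pcna (0.61 ± 0.13, limma adjusted p = 9.95e-04), which is also used in DNA repair.

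Targets of the hypoxia-inducible factors rose with glycolysis. Of 16 hypoxia targets, 10 rose in both comparisons and none fell in both, with a median of 1.18 (0.76 with Sham 1 and Sham 6). Adm, the vasodilator peptide adrenomedullin, had 1531, 1530.4 and 821 reads in RM-HS and 94.8 to 218 (median 147) in Sham (3.07 ± 0.25, limma adjusted p = 3.04e-08). Pfkfb3, which makes the allosteric activator of glycolysis, had 5117, 4084 and 3747 against 491 to 951 with a median of 652 (2.73 ± 0.21, limma adjusted p = 2.50e-08), and Ndrg1 had 167006, 129870.4 and 123335 against 21363 to 32550.4 with a median of 27008 (2.40 ± 0.21, limma adjusted p = 9.13e-08). None of these overlapped. Of 15 glycolysis genes, 8 rose in both comparisons and none fell, by smaller amounts: Gapdh by 1.0 ± 0.11, Eno1 by 0.95 ± 0.10, Pgam1 by 0.70 ± 0.09 and Pgk1 by 0.68 ± 0.09 (limma adjusted p = 1.33e-06, 7.97e-07, 4.90e-06 and 9.51e-06).

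Of 10 genes of glucose output and fructose use, functions of the proximal tubule, 4 rose in both comparisons and 7 with all 6 Sham libraries. Slc2a5, the fructose transporter of the late proximal tubule, had 7706, 9780.3 and 3526 reads against 1876 to 3101 with a median of 2615 (1.32 ± 0.24, 1.56 ± 0.32 with Sham 1 and Sham 6, limma adjusted p = 1.91e-04 and 0.00214). Slc2a2, the basolateral glucose exit GLUT2, rose by 2.78 ± 0.43 and by 1.58 ± 0.37 with the smaller control set (limma adjusted p = 4.11e-05 and 0.00491). Fructose bisphosphatase, Fbp1, rose by 1.17 and 0.64, in the same order. The rises of Slc2a2 and Fbp1 were smaller against Sham 1 and Sham 6, that of Slc2a5 was not, and the summed early proximal tubule markers were 449878 to 698679 normalized reads in RM-HS, 456377 and 471915 in Sham 1 and Sham 6, and 245827 to 359370 in Sham 2 to Sham 5. The part of that difference in these rises was not tested.

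Many sterol genes rose. Of 16 genes of cholesterol synthesis and uptake, 9 rose in both comparisons and none fell, with medians of 0.62 and 0.77. Insig1, which holds the sterol sensor back, had 5038, 5459 and 3996 reads against 883 to 1111 with a median of 1038 (2.26 ± 0.14, limma adjusted p = 9.66e-10), above every Sham library. Msmo1, a demethylase of the same pathway, rose by 1.04 ± 0.15 (limma adjusted p = 2.85e-05).

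Fat oxidation genes did not move as 1 group. Of 20 tested, 2 rose and 2 fell in both comparisons. With all 6 Sham libraries 7 rose, and 3 did so without RM-HS 1. Carnitine palmitoyltransferase 1, Cpt1a, which admits fatty acids to the mitochondrion, fell by 0.94 and its partner Cpt2 by 0.78 on the log2 scale (limma adjusted p = 4.18e-04 and 0.00112). Cpt2 had 737, 866 and 862 against 1089.8 to 1952 (median 1419.8), below Sham in every library. Pdk4, which shuts pyruvate out of the citrate cycle, rose by 1.34 ± 0.28, and Angptl4, an inhibitor of lipoprotein lipase, by 1.78 ± 0.26 (limma adjusted p = 8.68e-04 and 2.96e-05). Nuclear genes of oxidative phosphorylation showed little difference. Of 20 tested, 4 rose and 1 fell with all 6 Sham libraries. That count of 4 became 0 with upper quartile scaling and 1 without RM-HS 2 or without RM-HS 3.

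Genes that answer glucocorticoids and the metal-binding metallothioneins, taken as 1 list, rose in 8 of 13 cases in both comparisons, and none fell. Sgk1, a kinase that stabilizes the sodium channel ENaC, had 20624, 16585 and 14725 against 3882 to 6536 with a median of 5286 (1.74 ± 0.15, limma adjusted p = 1.11e-07). The metal-binding Mt2A had 110359.5, 142013 and 94264 against 15243 to 63457 with a median of 36145 (1.79 ± 0.29, limma adjusted p = 7.39e-05). Errfi1, a feedback inhibitor of the EGF receptor, rose by 1.91 ± 0.20 (limma adjusted p = 9.35e-07). Of 15 clock genes, 5 rose and 3 fell in both comparisons. The activators Npas2 and Clock rose by 2.25 ± 0.47 and 1.55 ± 0.27, and the repressors Bhlhe40 and Per1 by 1.80 ± 0.19 and 0.83 ± 0.19 (limma adjusted p = 8.30e-04, 1.57e-04, 1.02e-06 and 0.00152). The count of 3 fallen members became 1 without Sham 1, Sham 5, Sham 6, RM-HS 1 or RM-HS 2. The hour at which kidneys were taken is not in the labels used here.

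Many cytokines and genes of interleukin-6 family signalling were high. Of 22 such genes, receptors and signal carriers included, 13 rose in both comparisons and none fell, with a median log2 fold change of 1.55. Il6 had 320.1, 114 and 319 reads in RM-HS and 6.86 to 38.1 (median 29.6) in Sham (3.20 ± 0.80, limma adjusted p = 0.00319), with no overlap. Lif, a second ligand of the shared receptor gp130, had 210.1, 448 and 121 against 5.14 to 21.5 with a median of 12.2 (4.14 ± 0.51, limma adjusted p = 3.97e-06). Csf3, the neutrophil growth factor G-CSF, had 119, 199 and 174 against 1.52 to 16.5 with a median of 5.82 (4.46 ± 0.98, limma adjusted p = 0.00117). Each RM-HS library was thus above every Sham library for all 3 ligands. On the receiving side, the oncostatin receptor Osmr rose by 3.03 ± 0.20, gp130 itself, Il6st, by 1.59 ± 0.17 and the signal carrier Stat3 by 1.18 ± 0.12 (limma adjusted p = 2.94e-09, 8.72e-07 and 4.75e-07). Osmr had 8816, 4897 and 6569 against 617 to 926 (median 812).

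Chemokines moved both ways. Of 16 ligands, 7 rose and 3 fell in both comparisons. Ccl20, which draws cells with the receptor CCR6, had 988, 2005 and 671 reads against 14.4 to 64.7 with a median of 35.4 (5.0 ± 0.61, limma adjusted p = 3.77e-06). Cxcl10, an interferon-induced ligand for T cells, had 14657, 17910.3 and 13793 against 1531 to 7026 with a median of 2926 (2.42 ± 0.46, limma adjusted p = 3.03e-04), and the membrane-bound Cxcl16 rose by 1.41 ± 0.21 (limma adjusted p = 2.78e-05). The neutrophil chemokine Cxcl1 had 3481, 947 and 1705 against 156 to 1078 (median 310.2). Its difference of 2.41 ± 0.82 on the log2 scale (limma adjusted p = 0.0225) passed neither without RM-HS 1 (1.93, limma adjusted p = 0.128) nor without RM-HS 3 (2.44, limma adjusted p = 0.0567). Cxcl13, the B cell chemokine, had 96.9, 111 and 24.2 against 358 to 1769 (median 1202), below every Sham library (-4.02 ± 0.62, limma adjusted p = 4.74e-05). The monocyte chemokine Ccl2 had 2302, 498 and 1328 against 291 to 2938 (median 865) and did not pass (0.40 ± 0.83, limma adjusted p = 0.723), and its sign turned to -0.10 without RM-HS 1.

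NF-kB genes rose in 8 of 13 cases in both comparisons, and none fell in both. The inhibitors Nfkbia and Nfkbiz rose by 1.54 ± 0.16 and 1.91 ± 0.29, the co-regulator Bcl3 by 1.93 ± 0.35 and the subunit Rela by 0.90 ± 0.16 (limma adjusted p = 5.38e-07, 3.21e-05, 2.07e-04 and 1.51e-04). Interferon-stimulated genes went mainly the other way: of 20, 6 fell and 1 rose in both comparisons, with medians of -0.55 and -0.18. Mx2, an antiviral GTPase, had 232, 524 and 194 against 624 to 4102 with a median of 1902 (-2.55 ± 0.46, limma adjusted p = 2.24e-04). Oas1a fell by 2.10, Usp18 fell by 1.90 and Bst2 fell by 1.51 on the log2 scale (limma adjusted p = 0.00224, 0.00205 and 5.18e-04). The summed interferon list was 13614 to 18847 normalized reads in RM-HS and 12973 to 44773 in Sham, where Sham 2 was the highest, so the sums overlapped although these 4 genes differed.

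Fibrinogen was high in the injured kidney. Fgg, the gamma chain of the clotting protein, had 5738, 2226 and 3423 reads in RM-HS and 15.1 to 310.4 (median 50.9) in Sham (6.13 ± 0.86, limma adjusted p = 1.60e-05). The beta chain Fgb had 11524, 7184 and 6275 against 44.1 to 858 with a median of 132 (5.90 ± 0.78, limma adjusted p = 9.80e-06), and the alpha chain Fga 79887, 45943 and 37736 against 984 to 13812 with a median of 2093 (4.36 ± 0.71, limma adjusted p = 7.91e-05). Sham 2 was the highest Sham library in Fga, with 13812 reads. The 3 chains are made mainly in the liver. The liver list of other genes summed to 3878 to 5516 normalized reads in RM-HS and 2780 to 11891 in Sham. Sham 2 was the highest, and Sham 1 and Sham 6, with 2845 and 2780, were below every RM-HS library. Of 9 liver genes tested, 2 rose with all 6 Sham libraries, 1 of them in both comparisons, and none fell. Their medians were 0.97 with all 6 Sham libraries and 2.23 with Sham 1 and Sham 6. The part of liver transcripts in the fibrinogen rise was not tested. Of the 18 genes of fibrinogen, complement and the acute phase, 4 rose and none fell in both comparisons.

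Neutrophil markers rose in 12 of 13 cases in both comparisons, and none fell, with a median log2 fold change of 2.34. Their summed level was 12594, 8450 and 13999.7 normalized reads in RM-HS 1 to 3 and 1207 to 5063 in Sham. Cxcr2, the receptor for Cxcl1, had 103, 65.2 and 128 against 4.71 to 34.4 with a median of 10.1 (3.05 ± 0.48, limma adjusted p = 5.62e-05). Trem1, which amplifies myeloid activation, had 101, 52.4 and 94.1 against 6.86 to 22.6 with a median of 14.4 (2.46 ± 0.50, limma adjusted p = 5.75e-04). The integrin chain Itgam rose by 1.93 ± 0.35 and the gelatinase Mmp9 by 2.23 ± 0.38 (limma adjusted p = 2.11e-04 and 1.16e-04). The defining marker S100a8 had 3391, 2279.8 and 3904 against 180.1 to 1256 (median 596). The part of these cells in the cytokine, chemokine and protease results was not tested.

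Of 14 macrophage and dendritic cell genes, 2 rose and 2 fell in both comparisons, shares near those of all rows. Adgre1, the F4/80 antigen of resident macrophages, had 605, 236 and 426 against 649.5 to 2357 with a median of 2050.1 (-2.06 ± 0.36, limma adjusted p = 1.46e-04). The growth factor receptor Csf1r fell by 0.61 (limma adjusted p = 0.0173), a call lost without RM-HS 3 (limma adjusted p = 0.0884). The lysosomal Cd68 rose by 0.76 ± 0.23 (limma adjusted p = 0.0123), a call lost without RM-HS 1 (limma adjusted p = 0.0558). The mannose receptor Mrc1 rose by 1.02 ± 0.39 (limma adjusted p = 0.0416), a call lost without Sham 1, Sham 6, RM-HS 1 or RM-HS 3. Mrc1 did not pass in edgeR or DESeq2 (adjusted p = 0.0696 and 0.0549). Nor did it in limma with upper quartile scaling, no filter, only the groups compared or the R libraries alone (adjusted p = 0.0736, 0.0516, 0.0941 and 0.0653). With all 6 Sham libraries 4 rose, 1 of them without RM-HS 1, and 4 fell, 2 of them without RM-HS 3. Of 12 T, NK and B cell markers none passed in both comparisons.

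The vessel wall showed a split. Of 18 endothelial genes, 6 rose and 4 fell in both comparisons. Cdh5, the junction protein VE-cadherin, had 2281, 1327 and 1723 against 411 to 851 with a median of 515 (1.66 ± 0.24, limma adjusted p = 1.93e-05), and Thbd, the anticoagulant thrombomodulin, rose by 1.67 ± 0.27 (limma adjusted p = 8.31e-05). Tek, the angiopoietin receptor TIE2 that keeps vessels tight, had 245, 475 and 278 against 960.3 to 2248 with a median of 1446 (-2.16 ± 0.28, limma adjusted p = 6.43e-06). Emcn, the endomucin of capillaries and veins, had 431, 774 and 432 against 1357 to 2334 with a median of 1780.1 (-1.77 ± 0.22, limma adjusted p = 5.85e-06). Both genes were below Sham in all 3 libraries. The defining marker Pecam1 had 1331, 2149 and 1575 against 1695 to 2730.1 (median 2178) and did not pass (-0.36 ± 0.16, limma adjusted p = 0.0795).

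Of 17 vasoactive genes, 5 rose and 2 fell in both comparisons. The endothelin A receptor Ednra rose by 2.21 ± 0.25 and the bradykinin receptor Bdkrb2 by 2.65 ± 0.34 (limma adjusted p = 1.99e-06 and 6.43e-06). Ptgs1, the constitutive cyclooxygenase, which is rich in the collecting duct, had 82.8, 196 and 74.1 against 343 to 849.5 with a median of 652 (-2.48 ± 0.40, limma adjusted p = 6.25e-05). Genes that remodel the matrix or control plasmin rose in 9 of 15 cases in both comparisons, and none fell in both, with a median of 2.71. Adamts1, a proteoglycan-cutting protease, had 14260.3, 10290.0 and 7676 against 667 to 859 with a median of 755 (3.79 ± 0.31, limma adjusted p = 3.48e-08), and Adamts4, a protease of the same kind, rose by 3.41 ± 0.46 (limma adjusted p = 1.03e-05). The activator Plat rose by 1.64 ± 0.17 and the protease inhibitor Timp3 by 1.37 ± 0.20 (limma adjusted p = 5.88e-07 and 2.18e-05).

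Among 17 fibroblast and matrix genes, 2 rose and 1 fell in both comparisons. The 2 were Ccn1 and Ccn2, matricellular proteins induced by YAP and stretch, which rose by 2.86 ± 0.39 and 2.73 ± 0.40 (limma adjusted p = 1.36e-05 and 2.74e-05). The collagen Col1a2 fell by 1.55 (limma adjusted p = 4.26e-04), from 992 to 2395 (median 2159) to 551, 820.5 and 566, and Col3a1 fell by 1.38 with all 6 Sham libraries (limma adjusted p = 0.00111) and did not pass with Sham 1 and Sham 6 (-0.93 ± 0.38, limma adjusted p = 0.0793). Of 11 genes of the EGF receptor system, 4 rose and 1 fell in both. The ligand Hbegf had 3078, 2569.6 and 1583 against 76 to 295 with a median of 139 (4.02 ± 0.31, limma adjusted p = 2.43e-08), the ligand Areg rose by 2.76 ± 0.41 and the receptor Egfr by 2.37 ± 0.32 (limma adjusted p = 3.18e-05 and 1.16e-05). Btc, betacellulin, also a ligand, was the one that fell, from 129.9 to 206 (median 176) to 73, 29.1 and 24.2 (-2.13 ± 0.35, limma adjusted p = 8.88e-05), so ligands of 1 receptor moved in opposite directions.

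BMP signalling genes fell in 6 of 18 cases and rose in 3 in both comparisons. Smad9, a receptor-activated mediator, had 0, 0 and 7.13 against 51.4 to 143 with a median of 94 (-5.54 ± 0.93, limma adjusted p = 1.03e-04). Its paralogue Smad1 rose by 1.19 ± 0.15 (limma adjusted p = 6.42e-06), from 487 to 583 (median 549) to 1528, 1164 and 1052. The 2 mediators of 1 pathway thus lay on opposite sides of Sham in every library. The secreted BMP antagonist Grem1 had 354, 289.8 and 143 against 1294 to 6544 with a median of 3227 (-3.65 ± 0.69, limma adjusted p = 3.22e-04), the ligand Bmp4 fell by 1.42 and the target Id4 by 2.05 on the log2 scale (limma adjusted p = 3.92e-05 and 6.09e-05).

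Nephron segments differed in how their genes moved. The early proximal tubule did not fall. Of 14 markers, 11 rose with all 6 Sham libraries (median 1.22) and none fell. In both comparisons 2 rose, near the 13.3% of all rows (median 0.35 with Sham 1 and Sham 6). These counts and medians include Slc5a2, which is 1 of the 2 and whose levels set Sham 1 and Sham 6 apart. Its own rise is therefore left as the description given above and is no support for the list. The other of the 2 was Slc34a1. Slc34a1, the phosphate transporter of the same cells, had 133313, 114370.2 and 155673 against 32299.8 to 96562 with a median of 56320.2 (1.19 ± 0.24 and 0.57 ± 0.18, limma adjusted p = 5.02e-04 and 0.0282). Of 11 late proximal tubule genes 5 fell with all 6 Sham libraries and none in both comparisons. Slco1a1, an organic anion transporter, had 9640.4, 7858 and 8450.0 against 11597 to 18624 with a median of 14361 (-0.79 ± 0.17, limma adjusted p = 7.86e-04; -0.54 ± 0.20, limma adjusted p = 0.0518 with Sham 1 and Sham 6). The glucose transporter SGLT1, Slc5a1, rose by 0.85 ± 0.20 and 0.81 ± 0.21 (limma adjusted p = 0.00188 and 0.0097).

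Salt transport genes of the thick ascending limb fell. Of 12 tested, 6 fell in both comparisons, where 11.1% of all rows did, and none rose, with medians of -1.21 and -1.22. Casr, the calcium-sensing receptor (rn6 chromosome 11, 67188630 to 67258789), had 63.2, 61.7 and 61.3 reads in RM-HS and 187 to 1656 (median 946) in Sham (-3.63 ± 0.51, limma adjusted p = 1.56e-05; -4.52 ± 0.47 with Sham 1 and Sham 6). Bsnd, the barttin subunit of the chloride channels, had 373, 1131 and 641 against 3609.7 to 6585 with a median of 4786 (-2.93 ± 0.45, limma adjusted p = 4.77e-05). The potassium channel ROMK, Kcnj1, fell by 1.35 and the tight junction protein Cldn16 by 1.33 (limma adjusted p = 3.17e-04 and 3.69e-04). All 4 lay below every Sham library. Uromodulin, Umod, the most used marker of the segment, had 118272, 132613 and 132824 against 132353 to 235326 (median 192489), a smaller difference that did not pass (-0.56 ± 0.24, limma adjusted p = 0.0715). That call depended on the fit: with all 6 Sham libraries Umod passed in DESeq2 (adjusted p = 0.0374) and in limma with upper quartile scaling, with only the groups compared or with array weights (adjusted p = 0.029, 0.047 and 0.0472).

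The distal convoluted tubule was mixed, with 2 of 10 genes risen and 3 fallen in both comparisons. Trpv5, the apical calcium channel, had 1924, 1039 and 2862 against 49 to 332 with a median of 164 (3.70 ± 0.44, limma adjusted p = 2.82e-06). Kcnj10, the basolateral potassium channel that sets the cell's voltage, had 28.3, 25.6 and 98.3 against 139 to 1039 with a median of 659 (-3.49 ± 0.64, limma adjusted p = 2.45e-04). These 2 genes of 1 segment lay on opposite sides of Sham in every library. Trpm7, an ion channel with a kinase domain, rose by 0.92 ± 0.16, and Wnk4, a kinase upstream of the salt cotransporter, fell by 1.07 on the log2 scale (limma adjusted p = 1.29e-04 and 2.27e-04).

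Principal cells of the collecting duct, which take up water and sodium, had mainly lower values. Of 13 genes 12 fell with all 6 Sham libraries, 6 in both comparisons, and none rose (median -1.29). Avpr2, the vasopressin receptor (rn6 chromosome X, 156889410 to 156891038), had 17.4, 44.2 and 25.7 against 272 to 746 with a median of 544 (-4.12 ± 0.51, limma adjusted p = 4.68e-06; -3.45 ± 0.66 with Sham 1 and Sham 6). The water channel Aqp2 that it controls had 3162, 10243 and 6435 against 17636 to 57670.0 with a median of 34211 (-2.56 ± 0.41, limma adjusted p = 6.30e-05). The transcription factor Elf5 had 4.36, 2.33 and 28.5 against 113.1 to 277 with a median of 185 (-4.54 ± 0.79, limma adjusted p = 1.55e-04). Each gene was lower in all 3 injured libraries than in any Sham library. Hsd11b2, which protects the aldosterone receptor from glucocorticoids, fell by 1.66 (limma adjusted p = 7.51e-05). The basolateral water channel Aqp4 fell by 1.73 with all Sham libraries (limma adjusted p = 0.00734), a call lost without RM-HS 1 (limma adjusted p = 0.0668) and with Sham 1 and Sham 6 (limma adjusted p = 0.0968). Intercalated cells, the acid-secreting cells of the same duct, lost 4 of 12 genes in both comparisons, and none rose in both: the proton pump subunit Atp6v1b1 fell by 1.46, the ammonia channels Rhcg by 1.26 and Rhbg by 1.46, and Kit by 1.31 on the log2 scale (limma adjusted p = 1.67e-04, 7.78e-04, 1.26e-04 and 1.64e-04).

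Transcripts of the deep medulla differed between libraries beside these falls. The inner medullary urea transporter Slc14a2 had 13.1, 536 and 9.98 reads in RM-HS 1 to 3 and 1699.7, 1641, 1434, 2111, 984 and 1188 in Sham 1 to 6. Urothelial markers summed to 84.9, 879 and 131 normalized reads in RM-HS and 389 to 2383 in Sham. RM-HS 1 and RM-HS 3 thus held few of these deep medullary transcripts, and RM-HS 2 held more, within the range of Sham for urothelium and below it for Slc14a2. In RM-HS 2 Avpr2 had 44.2 and Aqp2 10243 reads, below every Sham library. The part of deep medullary tissue in the duct genes, Avpr2 and Aqp2 included, was not tested. Nor was its part in the falls of other genes, among them Ptgs1, Grem1 and the largest falls named below. Among 12 inner medulla and osmolyte genes, 2 rose and 1 fell in both comparisons. Slc5a3, the myo-inositol importer, had 4719, 6258 and 5731 against 556 to 1239 with a median of 797 (2.79 ± 0.42, limma adjusted p = 3.36e-05), the amino acid importer Slc38a2 rose by 1.17 ± 0.17, and the betaine importer Slc6a12 fell by 3.48 on the log2 scale (limma adjusted p = 1.98e-05 and 1.68e-05). With all 6 Sham libraries 4 fell, 1 without RM-HS 1 and 2 without RM-HS 3. Of 12 podocyte genes 2 rose and 1 fell in both comparisons, shares near those of all rows. Their median was 0.54 with all 6 Sham libraries and -0.21 with Sham 1 and Sham 6. Nephrin, Nphs1, rose by 2.06 ± 0.52 and 0.55 ± 0.15 (limma adjusted p = 0.00375 and 0.0129), and the actin crosslinker Actn4 by 0.66 and 0.41. Plce1 was the member that fell, a call lost with only the groups compared in the fit (-0.53, limma adjusted p = 0.0927). It was also lost with the R libraries alone (limma adjusted p = 0.0618). Leaving out Sham 1, 2, 3 or 4, or RM-HS 1, 2 or 3, lost it too (limma adjusted p = 0.051 to 0.0986).

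**Figure D4:**
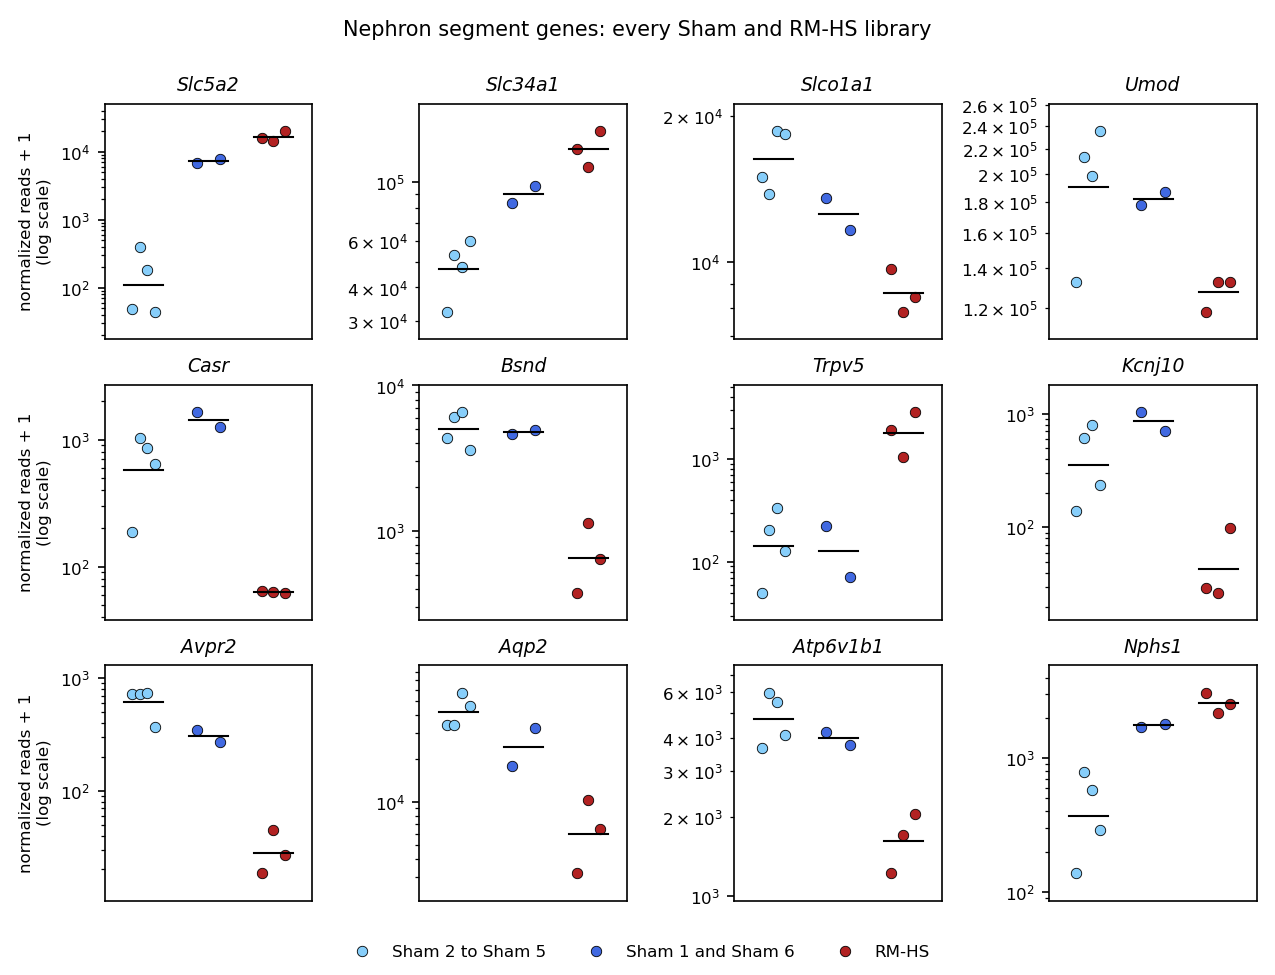
Each panel is 1 nephron gene, with a point for each library on a log scale of normalized reads plus 1: Sham 2 to Sham 5 (light blue), Sham 1 and Sham 6 (darker blue) and RM-HS (red), with bars at the mean of the log values. Slc5a2, by which the 2 sets of Sham libraries were told apart, and Nphs1 differ between those sets, while Casr, Bsnd, Kcnj10, Avpr2 and Aqp2 are lower in RM-HS than in both sets and Trpv5 is higher.

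The largest differences were picked by a rule: the 8 rises and 8 falls with the largest fold change in the weaker of the 2 comparisons, among genes that passed both, averaged 50 or more reads in whichever group was higher and did not overlap. Fosl1, Slc7a11, Fosb, Atf3 and Fgg, described above, were 5 of the 8 rises. The others were Lypd8, a secreted antibacterial protein of the colon (837, 427 and 245 against 0 to 5.16 (median 0)), Vgf, a neuropeptide precursor (107, 169 and 92.6 against 0 to 5.16 (median 0)), and Hephl1, a copper ferroxidase (62.1, 220.0 and 51.3 against 0 to 3.53 (median 0)). Sham held 3 recovered reads of Hephl1 in all and RM-HS 282, a ratio of 223 scaled for depth, with an exact interval from 75.6 to 1089 that covers counting error only.

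Among the falls, Tnni3k, a kinase known from heart muscle, had 0, 25.6 and 0 against 143 to 292 with a median of 224 (-6.22 ± 1.16, limma adjusted p = 2.89e-04). Synpo2l, an actin-binding protein of muscle, had 6.53, 14 and 0 against 172 to 380.3 with a median of 234 (-5.67 ± 0.64, limma adjusted p = 1.73e-06). Edn3, the endothelin ligand that prefers receptor B, had 2.18, 0 and 0 against 42 to 112 (median 62.6). RM-HS held 2 recovered reads of it and Sham 421, so Sham was higher by a ratio of 88.6 (exact interval 24.4 to 734). Smad9, described above, was also among the 8 falls. Nr0b2, the repressor SHP, had 0, 17.5 and 1.43 against 58.5 to 195 with a median of 147 (-5.20 ± 0.67, limma adjusted p = 6.43e-06), and Htr5b, a serotonin receptor, 9.8, 0 and 0 against 68.6 to 190.2 with a median of 97 (-5.49 ± 0.90, limma adjusted p = 8.47e-05). Smim5, a small membrane protein, fell by 5.53 and the zinc finger protein Trim29 by 5.32 (limma adjusted p = 1.94e-05 and 3.38e-04). With edgeR and Sham 1 and Sham 6 alone, Trim29 did not pass (adjusted p = 0.0721).

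The combined injury was then set beside each single injury in the same fit. Both comparisons use the same 3 RM-HS libraries. RM-HS differed from RM in 173 rows (1.08% of the rows tested), 63 higher (0.395%) and 110 lower (0.689%), while 2525 rows had an unadjusted p below 0.05. RM-HS differed from HS in 3287 rows (20.6%), 1599 higher (10%) and 1688 lower (10.6%). Library names bear on the first of these. All RM-HS libraries have names beginning with R, and so does 1 of the 6 RM libraries, whose other 5 begin with S. With that letter as a covariate, or with the R libraries alone, limma called none of the rows different from RM, with 1183 and 1101 rows at an unadjusted p below 0.05, whereas edgeR on all libraries called 129 and DESeq2 499. What the letter stands for is not given in the sources used here, and RM rests on 1 library of the letter R to tell it from the injury. The count against RM also hung on single libraries: it was 21 without RM-HS 1, 24 without RM-HS 3, 480 without RM 1, 31 without RM 5 and 46 without RM 3, with 52, 89 and 94 without RM 6, RM 2 and RM 4. HS has 3 libraries of letter R and 2 of letter S, and 2292 rows passed against HS with the letter as a covariate, 1203 with the R libraries alone. Without RM-HS 3, 2015 rows passed against HS.

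Genes that set RM-HS apart from RM were few. Ppp1r32, which encodes a protein phosphatase 1 subunit, had 383, 391 and 192 reads in RM-HS, 45.7 to 119 (median 50.3) in RM and 53.9 to 92 (median 65.6) in HS (2.39 ± 0.35, limma adjusted p = 0.0023 against RM). Btc had 73, 29.1 and 24.2 in RM-HS and 175 to 355 (median 234) in RM (-2.64 ± 0.35, limma adjusted p = 0.0015). These calls held when any 1 library of either group was left out. Krt20 had 0 to 5.07 (median 1.48) reads in RM and 275 to 1050.2 (median 410.4) in HS, so that RM-HS lay between the single injuries, above RM by 4.64 ± 0.78 and below HS (-2.86 ± 0.81; limma adjusted p = 0.0109 and 0.0173). It lost the first call without RM-HS 1 (limma adjusted p = 0.0606) and the second without RM-HS 3 (limma adjusted p = 0.107).

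The macrophage lectin Clec10a had 3200.0, 1175 and 2634 in RM-HS and 533 to 1095 (median 689) in RM (1.57 ± 0.36, limma adjusted p = 0.0389), and Arg1, the arginine-splitting enzyme, 256, 189 and 115 against 36.6 to 79.9 with a median of 67.6 (1.51 ± 0.35, limma adjusted p = 0.044). Lower than in RM were Cps1, the first enzyme of the urea cycle (-4.01 ± 0.89, limma adjusted p = 0.0362), the endothelial selectin Sele (-2.35 ± 0.57, limma adjusted p = 0.0499) and the NK cell receptor Klrb1c (-2.24 ± 0.47, limma adjusted p = 0.03). Sele had 47.9, 41.9 and 35.6 in RM-HS, 109 to 482 (median 195) in RM and 34.3 to 94.4 (median 54.4) in Sham, so its RM-HS values lay within those of Sham. Each of these 5 lost its call without RM-HS 1, without RM-HS 3 and without several RM libraries. Clec10a, for example, had limma adjusted p = 0.154 without RM-HS 1 and 0.169 without RM-HS 3, and Cps1 0.13 and 0.169. None of the 8 named genes passed with the letter as a covariate, where limma adjusted p ran from 0.127 for Btc to 0.57 for Cps1.

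Few members of any list differed from RM, where 1.08% of all rows passed. None of the AP-1, ATF4, heat shock, hypoxia, cytokine, neutrophil or thick ascending limb members passed against RM, a count that at this background says nothing about those lists, and 1 of the 21 other immediate early genes was lower. Of the 18 NRF2 genes, 2 were lower than in RM, and Slc7a11 had 651 to 9529 (median 6085) reads there against 2006, 2131 and 899 in RM-HS, without passing (-1.50 ± 0.75, limma adjusted p = 0.338). Hmox1 had 109354 to 172376 (median 164608) in RM (-0.93 ± 0.88, limma adjusted p = 0.645). These p-values do not show that the groups are alike.

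Against HS, 10% of all rows were higher and 10.6% lower. Among the same lists, 9 of 12 AP-1 and ATF factors, 14 of 21 other immediate early genes and 8 of 16 ATF4 targets were higher. So were 7 of 18 NRF2 genes, 10 of 22 cytokine and cytokine signalling genes and 5 of 13 neutrophil markers. Of those 6 lists, only the NRF2 list had a lower member. Hypoxia targets were higher in 6 of 16 cases. Heat shock genes (2 of 15) and thick ascending limb genes (2 of 12) were nearer the share of all rows. Slc7a11 had 28.8 to 166 (median 49) reads in HS, below every RM-HS library (4.76 ± 0.78, limma adjusted p = 4.08e-04). Hmox1 had 2468 to 36015 with a median of 4316 (3.83 ± 0.91, limma adjusted p = 0.00627), and passed with all libraries but not with the R libraries alone (limma adjusted p = 0.108). Csf3 had 0.979 to 32.5 (median 1.66) against 119, 199 and 174 in RM-HS (4.93 ± 1.01, limma adjusted p = 0.00231). Of the 20 nuclear oxidative phosphorylation genes, 13 were higher than in HS and none lower, and of 15 glycolysis genes 9.

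Kif5c, a kinesin motor chain, was the largest rise over HS (5.81 ± 1.66, limma adjusted p = 0.0185), yet its levels fell into high and low libraries within other groups, with 481, 4.3, 18.1, 2.35, 614 and 435 reads in Sham 1 to 6 and 12.7, 778, 23.3, 20.4, 13.3 and 788 in RM 1 to 6. It lost its call without RM-HS 1 (limma adjusted p = 0.0608) or RM-HS 3 (limma adjusted p = 0.053). Lower than in HS were Grem1, with 354, 289.8 and 143 against 1577 to 3509.5 with a median of 2216 (-3.25 ± 0.71, limma adjusted p = 0.00367), the cadherin Cdh3, with 20.7, 14 and 4.28 against 69 to 128 with a median of 88.1 (-2.97 ± 0.41, limma adjusted p = 1.27e-04), and Colq, the collagen tail of acetylcholinesterase (-3.42 ± 1.10, limma adjusted p = 0.0328). Colq lost its call without HS 1, HS 5 or RM-HS 1 (limma adjusted p = 0.0657, 0.0802 and 0.189). Grem1 and Cdh3 kept theirs.

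**Figure D5:**
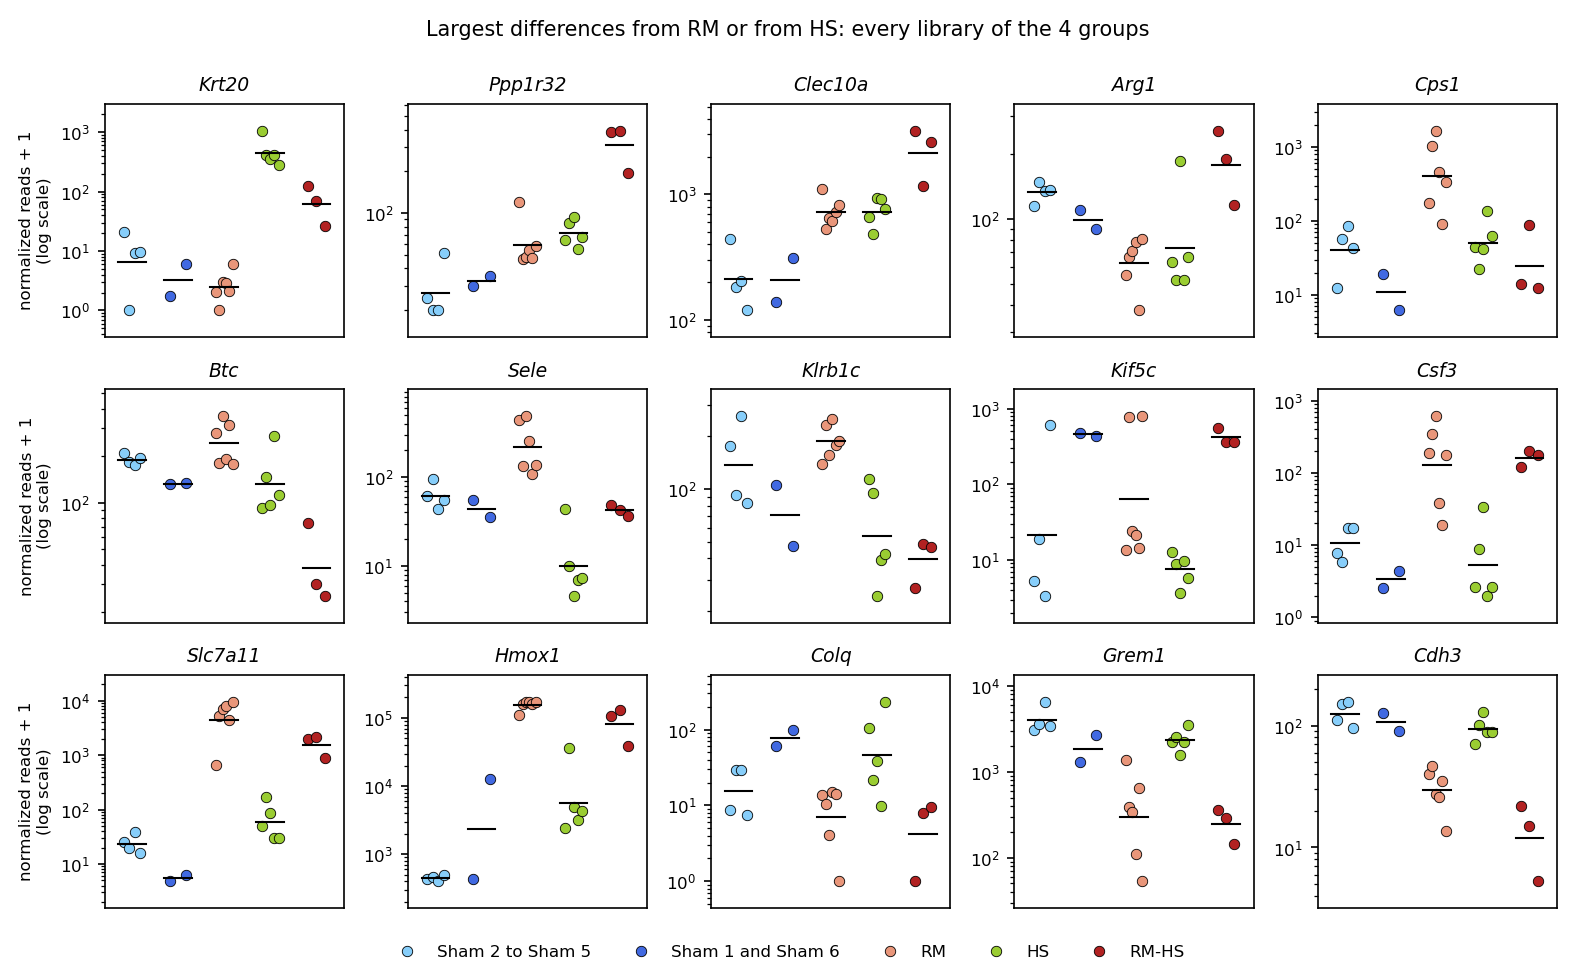
Each panel is 1 gene with the largest differences of RM-HS from RM or HS, with a point for each of the 20 libraries on a log scale of normalized reads plus 1: Sham 2 to Sham 5, Sham 1 and Sham 6, RM, HS and RM-HS, with bars at the mean of the log values. Ppp1r32 and Btc set RM-HS apart from all other groups, Krt20 is highest in HS, Slc7a11 and Hmox1 are high in RM and RM-HS, and Kif5c has high and low libraries within Sham and within RM.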

How the data were processed

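RNA of frozen rat kidney was sequenced as stranded messenger RNA libraries in paired reads, per the labels' protocols. FastQC 0.11.2, Picard 1.119, SAMtools 1.0, STAR, featureCounts of Subread 1.5.0 and DESeq2 and the build rn6 are named in the submitters' processing notes. The annotation is FASTDB, per the file headers. The deposited signal is a read count per gene divided by the authors' DESeq2 size factor of each library. Dividing by the value of 1 read gave whole reads for 100% of the values above 0, within 0.1 read, and those recovered reads served the count tests used as alternatives. No strand setting of the counting is given in the sources used here.

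Groups follow the disease label. Of 34681 rows, 14588 were 0 in every library, and 15954 that reached 10 in 3 or more of the 20 libraries were tested. Groups were compared with limma 3.58.1, run in R 4.3.3 (lmFit, contrasts and eBayes with a trend) on log2 of the value plus a pseudocount of 1, in 1 fit of 4 group means over the 20 libraries, with Benjamini-Hochberg adjustment over all rows tested and a threshold of 0.05. Fold changes are on that log2 scale, ± the standard error, and understate the change of rows of low value. Depth was 45047179 to 103005918 reads in the 9 libraries compared, and the closest pair within a group differed by 40.4 chi-square units per degree of freedom, so no library repeats another. Alternatives were the recovered reads tested with edgeR 4.0.16 and with DESeq2 1.42.0, other pseudocounts, filters and scalings, and leaving out libraries. On simulated counts for the 15954 rows of RM-HS against Sham, limma recovered 58 of 100 rows changed 2-fold and 77 of 100 changed 4-fold, and called 10 unchanged rows. No other rows were changed there, and all groups were drawn around the mean of the 20 libraries. In the data 42.3% of the rows passed. The adjustment depends on the share of changed rows, so these rates do not carry over to the comparison.

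The libraries, the 50 gene lists (745 genes, 694 tested) and the rule for named genes were chosen with earlier results of these data known. Named are, against Sham, the 8 genes that rose most and the 8 that fell most, the 4 largest in each direction against RM and HS, a fixed panel, and up to 4 members of each list by smallest adjusted p. Some genes the rule picks are counted in their lists and not reported by name here. Members outside it are said to be so where named, or serve as defining markers, or hold a searched promoter motif. The design text counts 19 libraries, with 5 of RM; the labels give 20, with 6. Promoter windows are RefSeq sequences of GRCr8, a build other than rn6, matched by symbol, and gene coordinates are those of the deposited table.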

Additional observations from a re-analysis of the deposited data

Results flagged for a closer look

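In 11 of the named genes 1 Sham library stood apart from the other 5 by a gap that is large for 6 samples; chance alone gives such a gap in about 1 of 20 groups, and 201 genes were looked at. Hmox1 had 12908 normalized reads in Sham 6 and 400.1 to 499.7 in the other Sham libraries. Sham 6 also held the lowest Col3a1, 1198 against 2467 to 3590, and the lowest Il6, 6.86 against 21.3 to 38.1. Sham 6 is 1 of the 2 libraries of the smaller control set, so it weighs more there. Sham 2 had the highest Fga, 13812 against 984 to 2402, the highest Orm1, the acute phase protein orosomucoid, 15.5 against 0, and the highest Lypd8, 5.16 against 0 to 0.953. It also had the lowest Slc11a2, 1512 against 2206 to 2731. Sham 1 had the lowest Cox6c, a cytochrome oxidase subunit, 37567 against 42639 to 45782, and the highest Il6st, 2717 against 1962 to 2181.7. Txnrd1 was highest in Sham 5, 8796 against 7055 to 7483, and Hephl1 in Sham 4, 3.53 against 0. Every RM-HS library was above the library that stood apart in Hmox1, Fga, Lypd8, Hephl1 and Txnrd1.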

How the results depend on the processing

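Of the counts against Sham, those with all 6 Sham libraries stayed within 1.5 times under every pseudocount, filter, scaling, weighting and count test tried. Sham 1 and Sham 6 alone gave 4347 passing rows, 1955 of them lower. An edgeR fit of that set, chosen after seeing the data, gave 4119, with 2181 higher and 1938 lower. Leaving out 1 library at a time gave 5051 to 6842 passing rows, 2609 to 3459 higher, 2442 to 3383 lower and 2371 to 3015 changed 2-fold. With Sham 1 and Sham 6 alone, also chosen after seeing the data, leaving out Sham 1, Sham 6, RM-HS 1, RM-HS 2 or RM-HS 3 gave 2319, 2746, 3137, 4019 and 3931 passing rows, 1481, 1661, 1803, 2190 and 2172 higher, 838, 1085, 1334, 1829 and 1759 lower, and 1474 to 2124 changed 2-fold (1609 without Sham 6, 1700 without RM-HS 1), a lone control being assumed to vary like the other groups. List members passing numbered 387 (322 to 392, and 194 to 287 with the smaller control set, 241 without Sham 6), and named genes passing 195 of 201 (182 to 194, and 133 to 172). Against RM, the rows passing, higher and lower were 42, 12 and 30 with only the groups compared in the fit, 333, 117 and 216 with array weights, 499, 188 and 311 with DESeq2, and 0, 0 and 0 with the R libraries alone or the letter as covariate; leaving out 1 library gave 21 to 480, 1 to 161 and 18 to 319. Against HS, the R libraries alone gave 1203, 524 and 679, and leaving out 1 library 2015 to 3289, 867 to 1606 and 1148 to 1683. The cause of these shifts was not tested. Fits of the R libraries alone, or with a library left out, also hold fewer libraries. The 3 genes Ccl2, Tfrc and Vcam1, none of which passed with all 6 Sham libraries, changed sign: Ccl2 (-0.10 to 1.004 leaving out 1 library, the lowest without RM-HS 1, and with Sham 1 and Sham 6 -0.30 by edgeR, -0.36 without RM-HS 1 and -1.35 without Sham 6), Tfrc (-0.20 to 0.21 leaving out 1 library, 0.00304 by trimmed mean of M values, 0.059 with array weights, 0.051, 0.014, 0.028 and 0.12 without Sham 1, 3, 4 and 6, and 0.21 without RM-HS 2; with Sham 1 and Sham 6 it passed without RM-HS 1, at -0.60) and Vcam1 (0.058 with Sham 6 alone). With members at 0 in a whole group set to their bound, the medians of the lists printed above were unchanged but for 1. That of the liver list with Sham 1 and Sham 6 went from 2.23 to 1.94. No paired analysis was possible because the labels carry no replicate numbers that pair libraries across groups. Depth limits genes with few reads, such as Edn3 and Hephl1, whose intervals cover counting error only.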

Other observations

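Genes of polyamine and arginine use rose in 7 of 16 cases in both comparisons, and none fell in both (median log2 fold change 0.49). Asl, which splits argininosuccinate to arginine, had 15638, 13802 and 16864 normalized reads in RM-HS and 2852 to 8709 (median 3985) in Sham (1.81 ± 0.24, limma adjusted p = 1.12e-05). Srm, spermidine synthase, had 2419, 3609 and 2436 against 1117 to 1641 with a median of 1499.6 (0.95 ± 0.16, limma adjusted p = 1.17e-04), and Azin1, which protects ornithine decarboxylase from decay, rose by 0.77 ± 0.13 (limma adjusted p = 1.08e-04). 

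Cytosolic ribosomal protein genes rose in 5 of 19 cases in both comparisons, none fell, and the median was 0.25. Rpsa, the laminin-binding subunit, rose by 0.43 ± 0.10 (limma adjusted p = 0.00254), from 19854 to 29462 (median 24862) to 32869, 35754 and 32178. The count of 5 became 1 with upper quartile scaling, with only the groups compared in the fit or without RM-HS 2, and 3 without RM-HS 3. Against HS, 10 of the 19 were higher. Proteasome subunits rose in 4 of 18 cases in both comparisons, and none fell. The 20S subunit Psmb2 rose by 0.41 ± 0.10 and Psmd1 of the cap by 0.52 ± 0.08 (limma adjusted p = 0.00231 and 2.86e-05). The 5 that rose with all 6 Sham libraries became 2 with upper quartile scaling or with only the groups compared, and 3 without RM-HS 1 or without RM-HS 3. Of the 7 globin and erythroid genes, 5 were higher than in HS. Myh1, a myosin of fast skeletal muscle, had no read in the 3 RM-HS libraries. Taken against a floor of 3 reads over the group, it was at least 15.9-fold lower than in Sham. The exact interval of the ratio, which covers counting error only, begins at 12.7.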
